A study of Mus musculus with 42 samples.

Results

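Thymus from mice carrying 1 wild-type copy of the p53 gene was compared 4 h after irradiation with thymus from mice of the same genotype that were not irradiated. The comparison used 7 of the 42 libraries in the deposited count table: 4 irradiated Het mice (Het-594, Het-595, Het-603 and Het-631) and 3 basal Het mice (Het-697, Het-703 and Het-855), chosen by genotype, tissue and treatment in the labels. Het is the genotype p53 +/-, a germline alteration. Where the Het response was set against other genotypes, the irradiated and basal thymus of p53 AD/- mice (AD, 4 and 3 libraries) and of p53-null mice (Null, 4 and 2 libraries) served. The AD mice carry an altered allele named AD over a null one. Irradiated p53 RP/- thymus (RP, 4 libraries) entered only the shared estimate of variance. All were 4-week-old mice of mixed background, 50% BALB/C and 50% C57BL6. The radiation dose, the sex and the time of day are not in the labels, and the alterations are germline, so each cell type of the thymus carries them. Irradiated and basal mice are different animals, and a cohort and the irradiation cannot be told apart.

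The p53 protein, encoded by Trp53, is a transcription factor that is kept scarce by the ubiquitin ligase Mdm2 and is stabilised when DNA breaks activate the ATM kinase. It binds a response element near its targets and switches on genes that halt the cell cycle, repair DNA, remodel metabolism and start the mitochondrial death pathway, together with Mdm2 and other genes that turn p53 off again. Most thymocytes are immature cells carrying both CD4 and CD8, and they are known for dying quickly after irradiation by a route that needs p53 and the BH3-only protein Puma.

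The 7 Het libraries held 26398761 to 31530368 counts, with 13.4 to 15.3% of them in the 10 most abundant genes and 2.4 to 4.24% in mitochondrial genes. Double-positive thymocyte markers such as Rag1 were abundant in every library: the summed level of the 18 markers was 15800 to 18400 CPM (counts relative to the library's total, scaled by TMM) in irradiated Het thymus and 15800 to 17200 CPM in basal Het thymus. Several libraries stood apart from the others of their group. Library Het-631 (irradiated) had a summed level of mature single-positive thymocyte markers of 537 CPM, against 1100 to 1210 CPM in the other irradiated libraries and 1180 to 1200 CPM in the basal ones. Library Het-697 (basal) had a summed level of 12 skeletal muscle markers of 644 CPM, against 69.9 to 120 CPM in irradiated libraries and 75.7 to 102 CPM in the other basal libraries. Library Het-595 (irradiated) held both Xist, at 1140 CPM, and the Y-linked Ddx3y, at 195 CPM. Libraries Het-631 (irradiated) and Het-855 (basal) held Xist at 131 and 164 CPM beside Ddx3y at 149 and 193 CPM. Results that rest on one of these libraries are given with and without it below.

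Irradiation was followed by changes in 3972 of 23605 genes tested, or 16.8%, at an adjusted p under 0.05 (edgeR quasi-likelihood test with Benjamini-Hochberg adjustment over all genes tested). Of these, 2062 genes were higher (8.74%) and 1910 lower (8.09%) in irradiated Het thymus, and these are the genes said below to have risen or fallen. The larger changes were mostly rises: of 629 called genes past 2-fold (2.66%), 461 (1.95%) were higher and 168 (0.712%) lower. All 4 irradiated libraries lay above all 3 basal ones in 12.3% of genes tested and below them in 12.5%, which is the background for statements on overlap. Without libraries Het-595, Het-631 and Het-697 together, a check chosen after seeing the data, 2381 genes passed. The number was 2370 when the spread was estimated from the 7 Het libraries alone. The labels give each library its own animal number. Each p rests on the spread between libraries within the 7 thymus groups together (24 libraries), not within the Het groups alone. Whether Het-595, Het-631 and Het-855, with Xist beside Ddx3y, each hold RNA of 1 mouse was not tested, so a value given for one of these mice is the value of its library. In bulk tissue, fewer cells of a type and less RNA per cell cannot be told apart, and this holds for every value below.

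**Figure D1:**
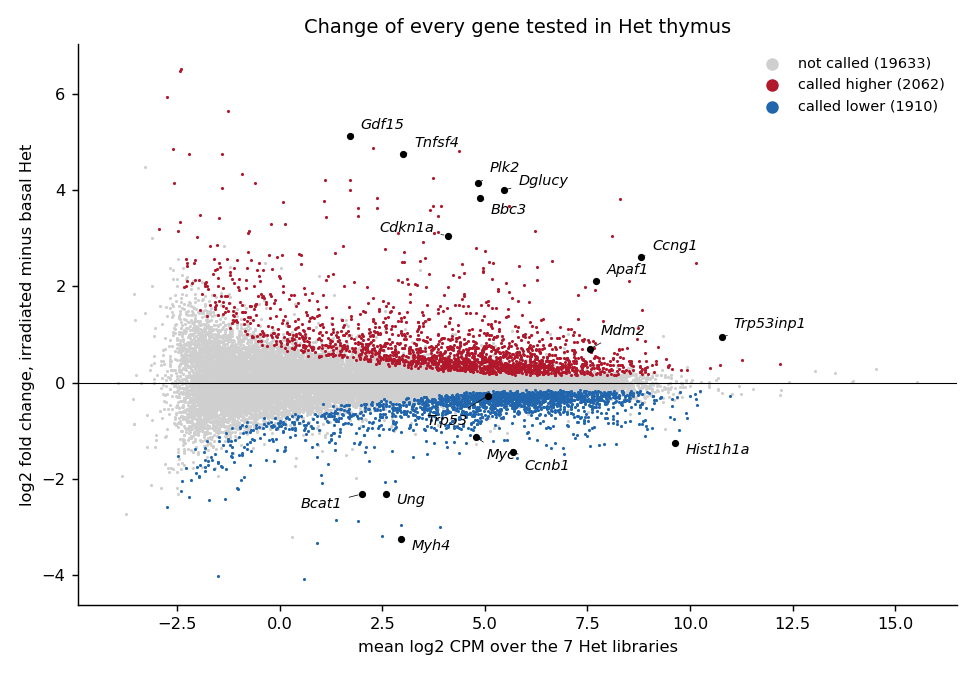
Change of every gene tested in Het thymus. The horizontal axis is the mean log2 CPM over the 7 Het libraries and the vertical axis the log2 fold change, irradiated minus basal. Red points are the 2062 genes called higher, blue points the 1910 called lower and grey points the rest; the p53 targets Ccng1, Apaf1, Plk2, Dglucy and Bbc3 lie above 2 on the log2 scale, and Ung and Bcat1 below -2.

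Trp53 itself was slightly lower after irradiation. Its level was 31.1, 32.5, 31.1 and 29.9 CPM in irradiated Het mice, against 39.7, 34.5 and 38.7 CPM in basal Het mice, a log2 fold change of -0.27 ± 0.08 (SE; edgeR adjusted p = 0.0153). The groups did not overlap, but the call was lost without basal library Het-697 (adjusted p = 0.092, edgeR) or Het-855 (adjusted p = 0.0637, edgeR). Null thymus also held Trp53 reads, at 18.8 to 21 CPM in irradiated mice and at 20.7 and 22.2 CPM in basal mice. How much of the Het level comes from the null allele was not tested. The p53 protein was not measured.

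The first list held 13 genes that regulate p53 or act in feedback around it, some restraining p53 or growth signals and some promoting p53 activity. Of these, 10 rose and none fell, with a median log2 fold change of 0.95, against 0.02 over all genes tested. Ccng1, which encodes cyclin G1, a partner of the phosphatase that activates Mdm2, was at 1100, 1000, 1040 and 785 CPM in irradiated Het mice and at 162, 167 and 152 CPM in basal Het mice. Its log2 fold change was 2.61 ± 0.09 (edgeR adjusted p = 5.26e-17). Mdm2 was at 230, 257, 227 and 214 CPM in irradiated Het mice, against 148, 142 and 138 CPM in basal Het mice, a log2 fold change of 0.70 ± 0.06 (edgeR adjusted p = 2.4e-09). Every irradiated mouse was above every basal mouse for both genes, and library Het-631 was the lowest of the irradiated ones for both. Phlda3, an inhibitor of the kinase Akt, rose by 2.73 ± 0.19 on the log2 scale, Zmat3, an RNA-binding protein, by 2.50 ± 0.14, and Sesn2, a sestrin that restrains mTORC1, by 2.32 ± 0.15. Ppm1d, the phosphatase Wip1 that removes damage-induced phosphates from p53 and ATM targets, rose by 1.18 ± 0.07. Trp53inp1, which promotes p53 phosphorylation and autophagy, was at 2660, 2380, 2500 and 1850 CPM in irradiated Het mice and at 1230, 1300 and 1120 CPM in basal ones. Its log2 fold change was 0.95 ± 0.10, so a gene already abundant in basal thymus was higher in each irradiated mouse than in any basal one. Ddit4, another mTORC1 inhibitor, changed by 1.32 ± 0.35 and lost its call without basal library Het-855 (edgeR adjusted p = 0.0669). Mdm4, the Mdm2 partner that masks the p53 activation domain, changed by 0.34 ± 0.09 and lost its call without basal library Het-703 (edgeR adjusted p = 0.0507) or Het-855 (0.0518). Sesn1 changed by 0.29 ± 0.10, with overlapping groups, and lost its call without any 1 of Het-594, Het-595, Het-603, Het-697, Het-703 and Het-855 (edgeR adjusted p of 0.0523 to 0.158). The ubiquitin ligase genes Cop1 (log2 fold change -0.07), Rchy1 (0.13) and Trim24 (0.17) were not called.

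Because p53 acts through a DNA element, the promoter windows of named p53 targets were read for it. The windows are 300 bases of RefSeq sequence (build GRCm38.p6), 250 before and 50 after an annotated start, printed 5′ to 3′ in the direction of the gene. A gene can have several annotated starts (32851 windows for 27025 genes). The window with the closest match is shown, and distances are from its own start, which need not be the main one. A gene counts as holding a match if any of its windows does. Capitals mark the best match to the p53 response element consensus, taken as a pair of its 10-base copies with no spacer, searched on both strands with at most 3 of 20 bases mismatched and the 4 fixed core bases intact. The first 3 genes shown, with 1 mismatch each, have the closest matches among the p53 targets; Bbc3 and Aen, with 3 mismatches, are death genes that rose; Tigar is shown because it also has a match with 3 mismatches and was not called. Cdkn1a lies at chr17:29090729-29091028 on the + strand, with the match beginning 51 bases before the start. Ccng1 lies at chr11:40755237-40755536 on the - strand, with the match 195 bases before the start. Gtse1 lies at chr15:85859696-85859995 on the + strand, with the match 1 base before the start. Bbc3 lies at chr7:16309333-16309632 on the + strand, with the match 97 bases before the start. Aen lies at chr7:78895677-78895976 on the + strand, with the match 11 bases past the start. Tigar lies at chr6:127109503-127109802 on the - strand, with the match 213 bases before the start.
Cdkn1a: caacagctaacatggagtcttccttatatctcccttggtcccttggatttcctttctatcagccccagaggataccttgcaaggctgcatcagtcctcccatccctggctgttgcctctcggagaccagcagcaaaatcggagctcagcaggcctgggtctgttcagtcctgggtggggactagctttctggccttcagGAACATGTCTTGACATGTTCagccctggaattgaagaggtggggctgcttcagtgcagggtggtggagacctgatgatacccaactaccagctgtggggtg
Ccng1: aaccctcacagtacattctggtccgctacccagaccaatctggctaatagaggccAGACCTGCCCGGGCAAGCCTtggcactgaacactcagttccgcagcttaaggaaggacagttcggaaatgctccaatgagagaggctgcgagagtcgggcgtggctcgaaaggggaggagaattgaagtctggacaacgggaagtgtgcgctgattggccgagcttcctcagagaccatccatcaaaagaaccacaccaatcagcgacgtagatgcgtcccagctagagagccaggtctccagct
Gtse1: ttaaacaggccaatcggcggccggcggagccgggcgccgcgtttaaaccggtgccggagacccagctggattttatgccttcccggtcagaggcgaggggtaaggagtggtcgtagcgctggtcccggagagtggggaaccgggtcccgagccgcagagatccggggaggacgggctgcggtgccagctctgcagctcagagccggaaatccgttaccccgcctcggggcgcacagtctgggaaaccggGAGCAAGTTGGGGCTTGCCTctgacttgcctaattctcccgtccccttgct
Bbc3: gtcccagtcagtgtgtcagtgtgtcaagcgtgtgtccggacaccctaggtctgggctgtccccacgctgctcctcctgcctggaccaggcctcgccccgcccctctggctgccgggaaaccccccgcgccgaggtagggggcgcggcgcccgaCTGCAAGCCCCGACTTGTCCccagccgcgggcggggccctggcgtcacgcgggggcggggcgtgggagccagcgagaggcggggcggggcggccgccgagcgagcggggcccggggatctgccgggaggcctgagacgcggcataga
Aen: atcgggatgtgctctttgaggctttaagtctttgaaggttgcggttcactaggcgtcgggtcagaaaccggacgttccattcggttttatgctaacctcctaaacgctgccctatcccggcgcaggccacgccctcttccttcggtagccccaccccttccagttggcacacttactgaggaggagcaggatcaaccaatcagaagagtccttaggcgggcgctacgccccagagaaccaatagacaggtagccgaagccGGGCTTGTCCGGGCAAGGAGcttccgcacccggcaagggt
Tigar: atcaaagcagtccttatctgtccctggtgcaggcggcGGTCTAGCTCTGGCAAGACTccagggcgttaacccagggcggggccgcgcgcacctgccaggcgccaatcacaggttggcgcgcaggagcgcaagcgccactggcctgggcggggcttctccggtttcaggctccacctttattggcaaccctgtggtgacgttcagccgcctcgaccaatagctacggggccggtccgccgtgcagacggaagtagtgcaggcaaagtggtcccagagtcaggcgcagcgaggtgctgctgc
A match is a description of the letters and not a binding site. Of 63 p53 targets in the 4 lists that have a window in the table, 8 held a match (12.7%), namely these 6, Sesn1 and Trp73. Of 27025 genes with a window, 441 did (1.63%). Among 282 genes that rose at least 2-fold and have a window, 16 held a match (5.67%). Among 55 that fell at least 2-fold and have one, 1 did (1.82%), and among all 13748 tested genes with a window, 251 did (1.83%). Most genes that rose therefore have no such letters in this window, which says nothing about elements elsewhere.

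Among cell cycle arrest and DNA repair targets of p53, 14 of 25 rose and 1 fell, with a median log2 fold change of 0.48. Cdkn1a (chromosome 17, 29090976 to 29100727), the inhibitor p21 of cyclin-dependent kinases, was at 44.5, 42.3, 38.1 and 42.2 CPM in irradiated Het mice, against 4.71, 5.69 and 4.78 CPM in basal Het mice. The log2 fold change was 3.05 ± 0.13 (edgeR adjusted p = 1.26e-14). Plk2, a polo-like kinase that acts outside mitosis, was at 98.7, 103, 85.7 and 105 CPM in irradiated Het mice, against 5.73, 4.96 and 5.86 CPM in basal Het mice. Its log2 fold change of 4.15 ± 0.14 (edgeR adjusted p = 1.07e-16) was larger than that of any other member of the list. Both genes were evenly raised, with no irradiated library standing apart and none near the basal range. Gtse1, a protein of G2 and S phase known in human cells to escort p53 out of the nucleus, was at 143, 153, 132 and 160 CPM in irradiated Het mice and at 36.8, 32.7 and 31.1 CPM in basal Het mice, a log2 fold change of 2.13 ± 0.15 (edgeR adjusted p = 7.77e-10).

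Of the repair enzymes on that list, Polk, the translesion DNA polymerase kappa, was at 150, 166, 157 and 154 CPM in irradiated Het mice and at 33.5, 27.2 and 27.8 CPM in basal Het mice. It rose by 2.41 ± 0.09 on the log2 scale (edgeR adjusted p = 2.42e-16). Ercc5, the excision repair nuclease XPG, rose by 1.26 ± 0.08. Ddb2, the damage-recognition subunit for ultraviolet lesions, rose by 0.48 ± 0.08, while the log2 fold changes of the lesion sensor Xpc, the polymerase gene Polh, the ribonucleotide reductase subunit Rrm2b and the sliding clamp Pcna were 0.01, -0.15, -0.08 and -0.32, none of them called. The antiproliferative gene Btg2 rose by 0.62 ± 0.12, Gadd45a, a binding partner of the clamp, by 0.81 ± 0.13, and Sfn, the 14-3-3 sigma protein that holds cyclin B in the cytoplasm, by 0.76 ± 0.12. E2f7, a repressor among the E2F factors, rose by 1.08 ± 0.18 and by 0.78 without library Het-631. Trp53cor1, the long noncoding RNA known as lincRNA-p21, was at 1.52, 1.64, 1.52 and 2.65 CPM in irradiated Het mice and at 0.362, 0.657 and 0.349 CPM in basal Het mice. Its log2 fold change was 2.0 ± 0.41 (edgeR adjusted p = 0.00113), or 1.78 without library Het-631. Without libraries Het-595, Het-631 and Het-697 it was 1.6, and the call was lost (edgeR adjusted p = 0.0559). Ptprv, Plk3 and Ccng2 had log2 fold changes of 0.88, 0.57 and 0.25 whose calls were lost when single libraries were left out. The member that fell, Cdc25c, is a phosphatase that drives entry into mitosis and is listed as a gene that p53 represses; its change of -0.44 ± 0.15 lost its call without any 1 of Het-594, Het-595, Het-603, Het-697, Het-703 and Het-855.

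Of 21 apoptosis targets of p53, 14 rose, 10 of them at least 2-fold, and 1 fell, with a median log2 fold change of 0.95. Bbc3 (chromosome 7, 16308393 to 16318205), which encodes Puma, was at 99.3, 101, 91.8 and 74.1 CPM in irradiated Het mice, against 7.05, 6.24 and 6.1 CPM in basal Het mice. The log2 fold change was 3.83 ± 0.19 (edgeR adjusted p = 4.74e-13). Pmaip1, which encodes Noxa, a second BH3-only protein, rose by 2.79 ± 0.13, and Bcl2l11, which encodes Bim, by 0.70 ± 0.08. Bax, the effector that opens the mitochondrial outer membrane, was at 81.3, 75.9, 79 and 70.3 CPM in irradiated Het mice and at 13.7, 13.9 and 13.4 CPM in basal Het mice, a log2 fold change of 2.49 ± 0.09 (edgeR adjusted p = 6.34e-16). Its sister effector Bak1 had a log2 fold change of -0.22 ± 0.08 and was not called. Apaf1, the scaffold of the apoptosome that cytochrome c assembles, was at 391, 405, 396 and 363 CPM in irradiated Het mice and at 94.7, 85.7 and 91.6 CPM in basal Het mice, a log2 fold change of 2.10 ± 0.06 (edgeR adjusted p = 1.65e-18). A BH3-only gene, an effector gene and the apoptosome gene of the mitochondrial route thus each had irradiated values far above the basal ones.

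Death receptors rose too. Tnfrsf10b, the receptor for TRAIL, rose by 2.04 ± 0.14, Eda2r, a receptor of the TNF family, by 2.83 ± 0.25, and Fas by 0.90 ± 0.11. Pidd1, the scaffold that activates caspase 2, was at 74, 73.2, 70.5 and 127 CPM in irradiated Het mice and at 20.6, 21.3 and 20 CPM in basal Het mice, a log2 fold change of 2.06 ± 0.15, or 1.82 without library Het-631. Aen, a nuclease that acts during apoptosis, was at 219, 225, 223 and 171 CPM in irradiated Het mice and at 36.3, 37.1 and 35.9 CPM in basal Het mice, a log2 fold change of 2.53 ± 0.11 (edgeR adjusted p = 1.26e-14). For these 2 genes library Het-631 stood away from the other irradiated libraries in opposite directions, and still above every basal library. Ei24, a membrane protein of the endoplasmic reticulum, rose by 2.02 ± 0.09, and Perp, a membrane protein of desmosomes, by 0.63 ± 0.11. The member that fell was Bid, the BH3 protein that links death receptors to mitochondria, at 24.3, 20, 21.4 and 23.6 CPM in irradiated Het mice and at 37.5, 42.4 and 37.3 CPM in basal Het mice (log2 fold change -0.80 ± 0.09).

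Broader families share members with that list. Of 18 genes of the BCL2 family, 6 rose and 1, Bid, fell, with a median of 0.19; beyond Bbc3, Pmaip1, Bax and Bcl2l11, counted above, the risers were Bik at 0.58 and the survival gene Bcl2l1 at 0.21. The counts were 4 and 1 without library Het-697. Of 18 caspase and apoptosome genes, 3 rose and 1 fell, with a median of 0.02. The risers included Apaf1 and the inflammatory caspase gene Casp4 (0.46), and Cycs, which encodes cytochrome c, fell by 0.57 on the log2 scale.

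Metabolic targets of p53 rose in 11 of 17 cases and fell in none, with a median log2 fold change of 0.49; Sco2 was too low to test. Dglucy, which encodes D-glutamate cyclase, was at 135, 159, 131 and 154 CPM in irradiated Het mice and at 8.17, 9.2 and 9.8 CPM in basal Het mice, a log2 fold change of 4.00 ± 0.11 (edgeR adjusted p = 1.25e-18). Cpt1c, a carnitine palmitoyltransferase of brain, rose by 2.22 ± 0.23, the thiamine transporter gene Slc19a2 by 1.99 ± 0.10, the urate transporter gene Slc2a9 by 1.55 ± 0.08 and the lysosomal fucosidase gene Fuca1 by 1.41 ± 0.08. Lpin1, a phosphatidate phosphatase, rose by 1.16 ± 0.09, Aldh4a1, an enzyme of proline breakdown, by 1.03 ± 0.10 and the cholesterol exporter gene Abca1 by 0.70 ± 0.12. Several metabolic targets were not called: Tigar, a fructose bisphosphatase, had a log2 fold change of -0.05, Gls2, a glutaminase, 0.38, Fdxr, ferredoxin reductase, 0.18, and Pank1, a pantothenate kinase, -0.07. Ckm, the muscle creatine kinase, had -1.98 and was not called, and it had 0.12 without basal library Het-697. The values of Tigar, Gls2, Fdxr, Pank1 and Ckm overlapped between the groups. Risers ranged from Dglucy, far above the basal range, to Abca1, at 162 CPM in library Het-631 against 149 CPM in basal library Het-855.

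**Figure D2:**
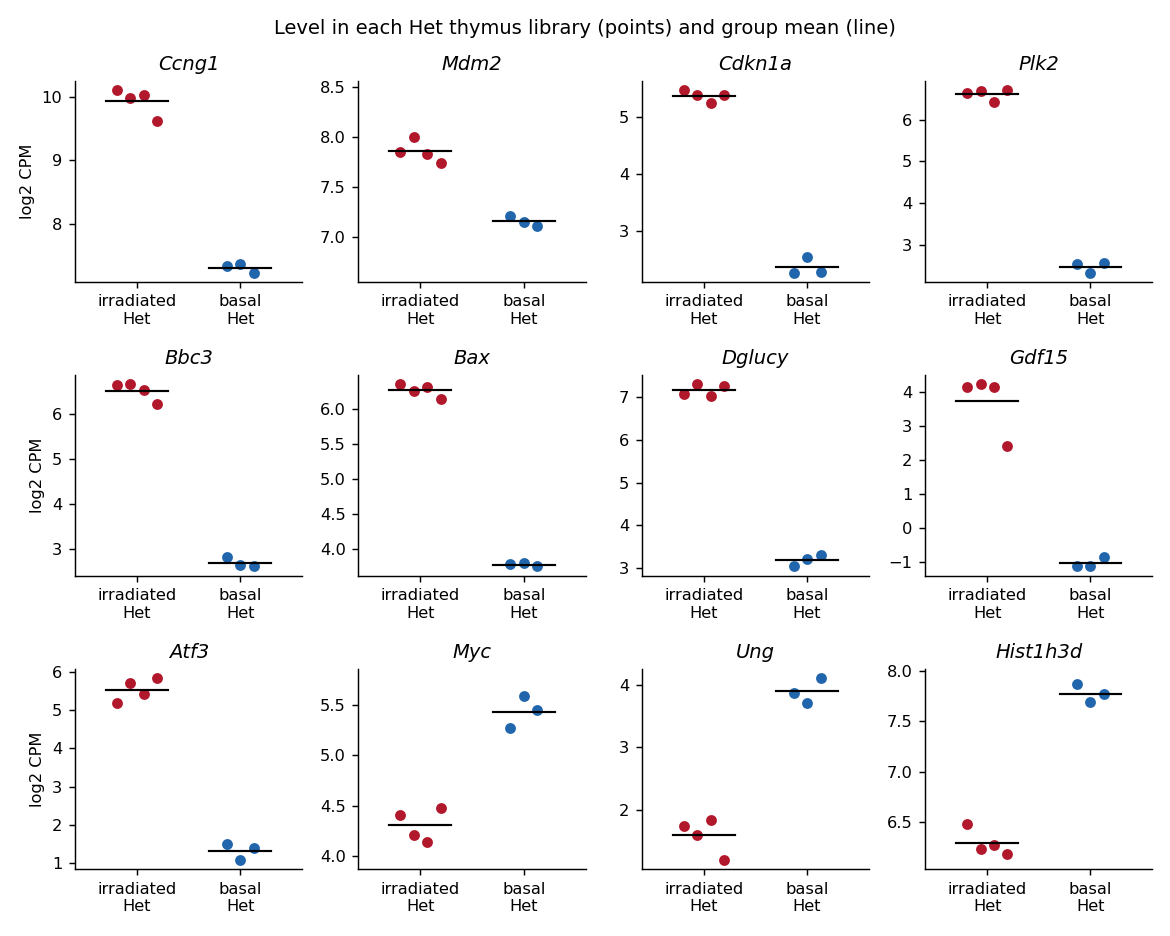
Level of 12 genes in each Het thymus library. Each panel plots log2 CPM for the 4 irradiated Het mice (red, left) and the 3 basal Het mice (blue, right), with a line at the group mean; the vertical axis differs between panels and does not start at 0. No panel has an irradiated point within the range of the basal points, and in the Gdf15 panel library Het-631 lies below the other 3 irradiated ones.

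The same genes were then followed in AD and Null thymus, each measured against its own basal thymus. The Het response differed from the AD response in 940 genes (3.98%), with 694 (2.94%) higher and 246 (1.04%) lower in Het, and from the Null response in 811 genes (3.44%), with 559 (2.37%) higher and 252 (1.07%) lower (edgeR, test of the difference between responses). The number for AD was 1584 without Het-631 and 611 without Het-703. The number for Null was 1329 without Het-631, 442 without Null-923 and 444 without Null-859, the only basal Null thymus libraries, 346 with the compared groups alone and 1220 by DESeq2. The Het libraries enter both differences. The log2 fold change of Cdkn1a was 3.05 in Het thymus, against 0.22 in AD and 0.21 in Null thymus (adjusted p of the differences 7.28e-11 and 3.07e-10, edgeR). For Bbc3 it was 3.83 in Het thymus, against -0.01 in AD and 0 in Null thymus (2.54e-10 and 1.31e-09, edgeR adjusted p). For Mdm2 it was 0.70 in Het thymus, against -0.06 in AD and -0.12 in Null thymus (4.14e-07 and 3.97e-07, edgeR adjusted p). Cdkn1a was at 3.46 to 4.86 CPM in irradiated AD mice and at 3.11 to 4.41 CPM in basal AD mice, so its values overlapped there. Counting members whose Het response was higher than the AD response and than the Null response, there were 7 and 7 of the 13 feedback genes and 8 and 8 of the 25 arrest and repair genes. There were 14 and 13 of the 21 apoptosis genes, and 7 and 7 of the 17 metabolic genes. The medians of the 4 lists were -0.04, 0, -0.08 and 0 in AD thymus and 0.06, 0.03, 0.01 and 0.09 in Null thymus, where all genes tested had medians of 0.01 and 0.03. Ddb2, with 0.48 in Het thymus, 0.41 in AD and 0.24 in Null thymus, and E2f7, with 1.08, 0.82 and 0.68 in the same order, were not called in either difference.

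**Figure D3:**
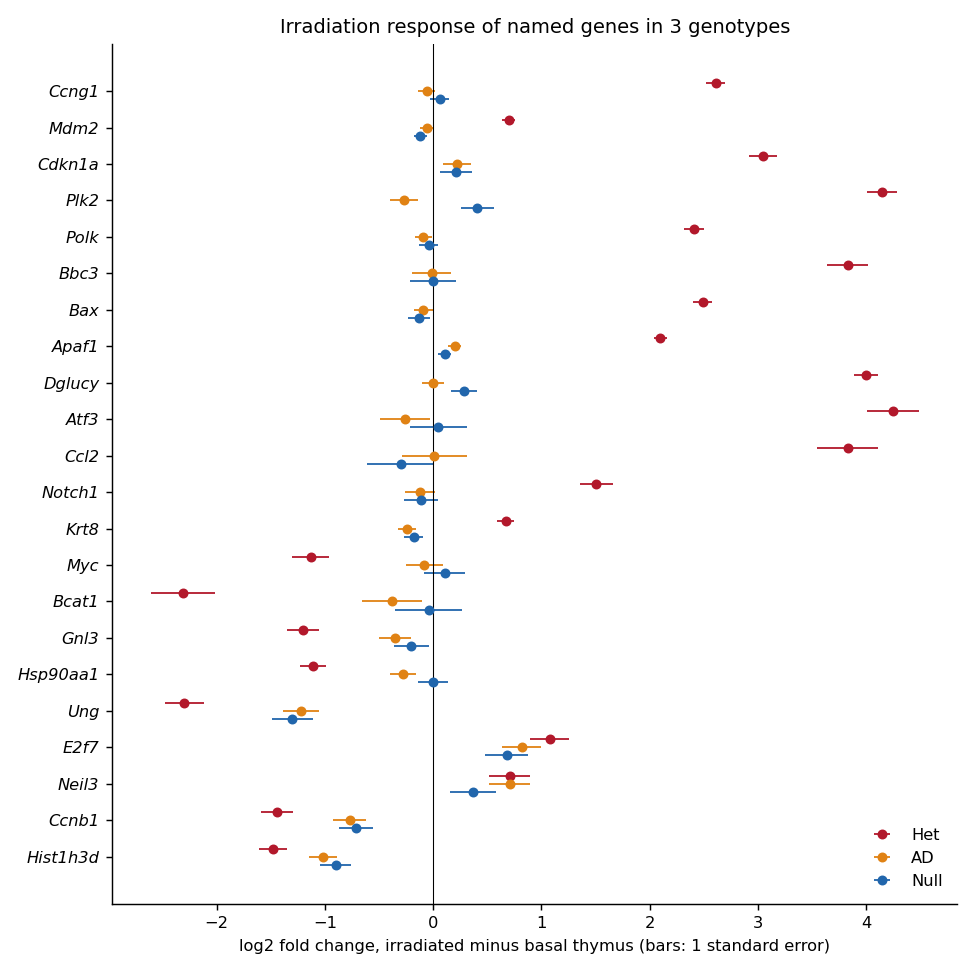
Irradiation response of named genes in 3 genotypes. Points are log2 fold changes, irradiated minus basal thymus, in Het (red), AD (orange) and Null (blue), and bars are 1 standard error. From Ccng1 down to Notch1 the Het points lie well to the right of both others; Ung, Ccnb1 and Hist1h3d are below 0 in all 3 genotypes.

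The steepest risers named by size included signalling genes besides members of the 4 p53 target lists. A gene outside these lists may still be a p53 target. Gdf15, a stress-induced cytokine of the TGF-beta superfamily, was at 17.9, 18.9, 17.9 and 5.29 CPM in irradiated Het mice and at 0.395, 0.401 and 0.488 CPM in basal Het mice. The log2 fold change was 5.12 ± 0.40 (edgeR adjusted p = 1.14e-09). Tnfsf4, which encodes OX40 ligand, was at 39.2, 35.2, 35.8 and 21.2 CPM in irradiated Het mice and at 0.988, 1.5 and 1.22 CPM in basal Het mice, a log2 fold change of 4.74 ± 0.25 (edgeR adjusted p = 4.1e-13). Library Het-631 was the lowest irradiated library for both, though far above the basal range. Tnfsf8, which encodes CD30 ligand, rose by 2.15 ± 0.18. Across 26 TNF ligands and receptors 10 rose and 1, Cd27, fell, with a median of 0.14. This family can share members with the apoptosis targets, so its count is not separate from theirs. Cox6b2, a cytochrome oxidase subunit typical of testis, rose by 3.59 ± 0.20, and Inka2, an inhibitor of the kinase PAK4, by 3.15 ± 0.10. Notch1, the receptor that commits progenitors to the T lineage, was at 638, 716, 623 and 887 CPM in irradiated Het mice and at 253, 244 and 257 CPM in basal Het mice. Its log2 fold change was 1.51 ± 0.15 in Het thymus (edgeR adjusted p = 1.5e-07), against -0.12 in AD and -0.11 in Null thymus (adjusted p of the differences 1.21e-05 and 3.14e-05, edgeR).

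Immediate early genes, which encode short-lived transcription factors and regulators made within minutes of a stimulus, rose in 18 of 23 cases and fell in none, with a median log2 fold change of 0.74. The medians were -0.14 in AD and -0.06 in Null thymus, and 12 and 13 members had a higher response in Het than in AD and than in Null. Atf3, a stress-induced repressor, was at 35.8, 52.1, 42.4 and 57.3 CPM in irradiated Het mice and at 2.77, 2.04 and 2.58 CPM in basal Het mice, a log2 fold change of 4.25 ± 0.24 (edgeR adjusted p = 2.87e-12). Fos and Jun, which pair as the factor AP-1, rose by 3.13 ± 0.20 and 2.29 ± 0.16, the survival gene Ier3 by 2.77 ± 0.17 and the MAP kinase phosphatase gene Dusp1 by 1.6 ± 0.10. Secreted factors of the same kind rose with them: Ccn1, a matrix protein, by 4.80 ± 0.32, Thbs1, thrombospondin, by 3.67 ± 0.37, and Hbegf, a ligand of the EGF receptor, by 3.45 ± 0.23. Thbs1 was at 97.8, 192, 84.5 and 224 CPM in irradiated Het mice and at 10.5, 13.2 and 11.6 CPM in basal Het mice, so its irradiated values spread widely and none came near the basal range.

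Some chemokine genes also rose. Of 33 chemokines and receptors, 15 rose and 3 fell, with a median of 0.27. Ccl2, which draws monocytes, was at 16.3, 18.1, 13.4 and 16.1 CPM in irradiated Het mice and at 1.05, 0.876 and 1.43 CPM in basal Het mice, a log2 fold change of 3.83 ± 0.28 (edgeR adjusted p = 3.02e-10). Its neighbours in the cluster Ccl7 and Ccl12 rose by 4.20 ± 0.36 and 1.98 ± 0.29, the macrophage chemokines Ccl3 and Ccl4 by 3.43 ± 0.42 and 2.18 ± 0.36, and the neutrophil chemokine Cxcl1 by 2.25 ± 0.35. These 6 genes were low in basal Het thymus, at 2.48 CPM or less in each mouse. Each was above its basal range in all 4 irradiated mice, as were 12.3% of all genes tested. The members that fell were Xcl1 (-1.13), Ccr8 (-0.74) and Ccr4 (-0.65). Of 27 NF-kB targets 13 rose and 1, Sod2, fell, with a median of 0.42. Il1b, an inflammatory cytokine, rose by 2.08 ± 0.19. The NF-kB and chemokine lists can share members, so their counts are not separate. Of 28 interferon-stimulated genes only Gbp2 was called, at 0.35 ± 0.07, with a list median of 0.11; without library Het-631 there were 12 risers and no fallers.

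Macrophage markers did not move as 1 block. Their summed level was 1310, 1080, 1290 and 648 CPM in irradiated Het mice and 820, 843 and 938 CPM in basal Het mice, so library Het-631 lay below the basal range and the other 3 above it. Of 16 markers 3 rose, namely Mertk, Cd68 and Spic, and none fell, with a median of 0.30; without library Het-631, 10 rose and none fell. Spic, the factor that specifies iron-recycling macrophages, was at 44.5, 37.5, 54.9 and 16.2 CPM in irradiated Het mice and at 7.28, 9.12 and 7.95 CPM in basal Het mice, a log2 fold change of 2.24 ± 0.28. Hmox1, heme oxygenase, was at 43.6, 48.6, 38.5 and 19.8 CPM in irradiated Het mice and at 10.3, 10.9 and 13 CPM in basal Het mice, a log2 fold change of 1.73 ± 0.22. Both had their lowest irradiated value in library Het-631, where the macrophage sum was also lowest. The neutrophil marker sum was 76 to 646 CPM in irradiated Het mice and 170 to 205 CPM in basal Het mice, and the dendritic cell sum was 1250 to 2160 CPM in irradiated Het mice and 1530 to 1760 CPM in basal ones. No marker of these lists was at 0 in all 7 libraries. The part of changing cell numbers in the chemokine and NF-kB values was not tested.

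**Figure D4:**
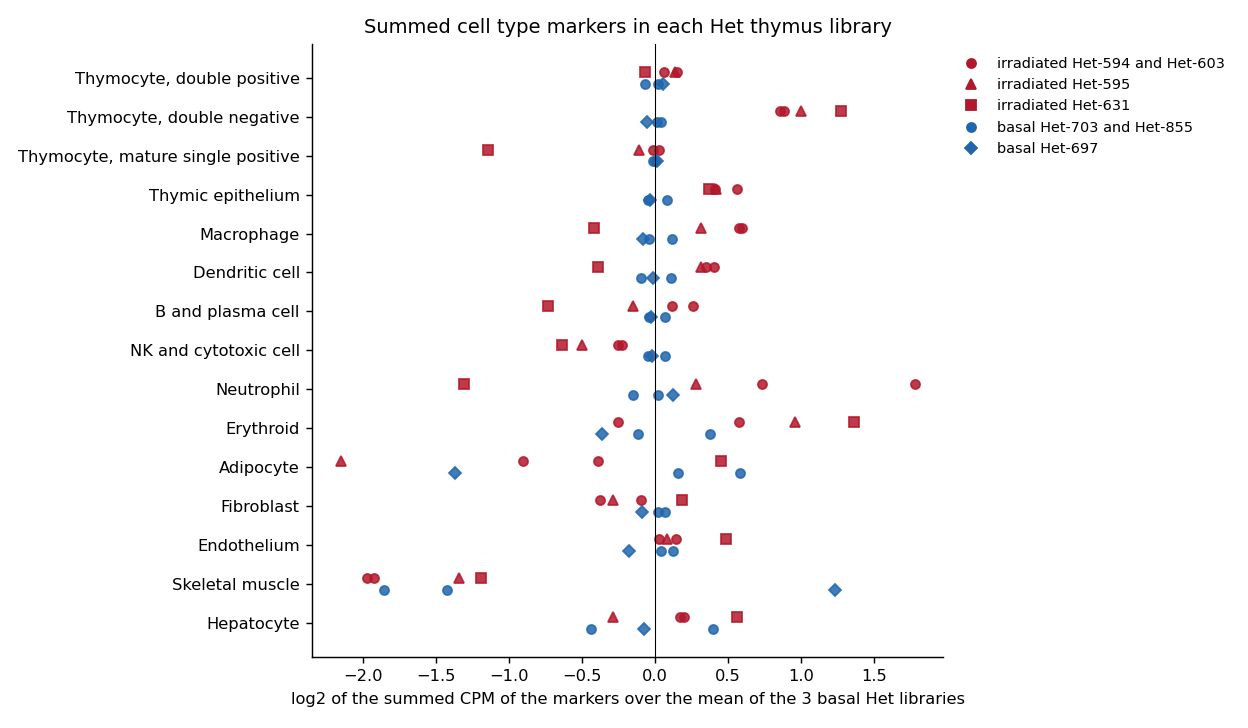
Summed cell type markers in each Het thymus library. The horizontal axis is the log2 ratio of a library's summed marker CPM to the mean of the 3 basal Het libraries; red symbols are irradiated and blue symbols basal Het mice, with separate symbols for libraries Het-595, Het-631 and Het-697. Library Het-631 lies to the left for mature single-positive, macrophage, dendritic, B cell and neutrophil markers, and library Het-697 to the right for skeletal muscle.

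Of 16 thymic epithelial markers 6 rose, 1, the Notch ligand gene Dll4, fell, and 9 were not called. Their summed level was 2410 to 2750 CPM in irradiated Het mice and 1800 to 1970 CPM in basal Het mice, a sum to which Krt8, Krt18, Ccl25 and Prss16, all risers, contribute. The median log2 fold change was 0.20 in Het thymus, -0.19 in AD and -0.16 in Null thymus, and 6 members had a higher response in Het than in AD and 6 than in Null. Krt8 and Krt18, the keratin pair of cortical epithelium, rose by 0.67 ± 0.08 and 0.72 ± 0.09. The chemokine gene Ccl25 and the serine protease gene Prss16, both made by cortical epithelium, rose by 0.39 ± 0.09 and 0.44 ± 0.11. The double-positive thymocyte sum, by contrast, overlapped between the groups (15800 to 18400 CPM in irradiated and 15800 to 17200 CPM in basal Het mice). Of its 18 markers 3 rose and 4 fell, with a median of -0.01. The recombinase gene Rag1 was at 6000, 5780, 5130 and 4290 CPM in irradiated Het mice and at 4210, 4200 and 3860 CPM in basal Het mice (log2 fold change 0.38 ± 0.10), a call lost without basal library Het-855 (edgeR adjusted p = 0.0557). Markers of double-negative thymocytes summed to 801 to 1070 CPM in irradiated Het mice and 427 to 455 CPM in basal Het mice, a sum in which Notch1 alone gave 623 to 887 CPM and 244 to 257 CPM; of the 14 markers 4 rose and 4 fell. Mature thymocyte markers rose in 1 and fell in 2 of 18 cases. The background for these thymocyte counts is the 8.74% of all genes tested that rose and the 8.09% that fell. Cd5, which scales with T cell receptor signalling, was at 172, 138, 166 and 79.2 CPM in irradiated Het mice and at 254, 238 and 218 CPM in basal Het mice, a log2 fold change of -0.77 ± 0.15, or -0.57 without library Het-631.

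The falls were smaller in size, and growth genes were among them. Myc, the factor that drives ribosome production and biosynthesis, was at 21.2, 18.5, 17.5 and 22.2 CPM in irradiated Het mice, against 38.6, 48.2 and 43.5 CPM in basal Het mice. The log2 fold change was -1.13 ± 0.17 in Het thymus (edgeR adjusted p = 5.76e-05), against -0.08 in AD and 0.11 in Null thymus (adjusted p of the differences 0.013 and 0.00704, edgeR). In Null thymus Myc was at 41.3, 72.7, 37.7 and 40 CPM in irradiated mice and at 41.7 and 47.4 CPM in basal mice. The highest was library Null-604, and the other irradiated Null libraries lay below both basal ones. Of 30 ribosome biogenesis genes, 24 fell and 1 rose, with a median of -0.61 in Het thymus, -0.20 in AD and -0.08 in Null thymus; 7 had a lower response in Het than in AD and 8 than in Null. Gnl3, the nucleolar GTPase nucleostemin, was at 25.9, 26.2, 26.5 and 25.2 CPM in irradiated Het mice and at 57.6, 62.7 and 58.6 CPM in basal Het mice, a log2 fold change of -1.20 ± 0.15 (edgeR adjusted p = 4.63e-06). Dkc1, the pseudouridine synthase dyskerin, fell by 1.15 on the log2 scale (SE 0.18), and the small nucleolar RNA protein gene Nop58 fell by 0.93 (SE 0.09). The member that rose was Wdr12 (0.40). For Gnl3, Dkc1 and Nop58 all 4 irradiated mice were below all 3 basal mice, as in 12.5% of all genes tested. In irradiated Null thymus, library Null-604 held Gnl3 at 97.5 CPM and the others at 51.5 to 55.9 CPM. Basal Null mice were at 70.2 and 78.3 CPM. Dkc1 was at 200 CPM in Null-604, 90.1 to 99.7 CPM in the others and 112 and 118 CPM in basal Null mice. The Null list median without Null-604 was not tested.

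Single enzymes named for the size of their fall came next. Bcat1, a branched-chain amino acid transaminase, was at 2.15, 1.75, 2.51 and 1.56 CPM in irradiated Het mice and at 9.12, 10.3 and 10.4 CPM in basal Het mice, a log2 fold change of -2.31 ± 0.30 (edgeR adjusted p = 1.01e-05). Dctd, deoxycytidylate deaminase, fell by 2.08 on the log2 scale (SE 0.23), Srm, spermidine synthase, by 1.49 (SE 0.27) and Shmt1, a serine hydroxymethyltransferase, by 1.08 (SE 0.10). Of 20 glycolysis genes 11 fell and 1 rose (median -0.37), with Tpi1 and Ldha at -0.91 ± 0.12 and -0.69 ± 0.11. Of 24 genes on a cholesterol synthesis list 9 fell and none rose (median -0.24), with Hmgcs1, the synthase that makes HMG-CoA, at -0.61 ± 0.09 and the sterol demethylase gene Cyp51 at -0.65 ± 0.09. Of 48 oxidative phosphorylation genes 29 fell and none rose, with a narrow range of -0.57 to -0.10 and a median of -0.30. Without libraries Het-595, Het-631 and Het-697, 9 cholesterol genes, 10 oxidative phosphorylation genes and 5 glycolysis genes were called lower. Among 17 heat shock chaperones 9 fell and 2 rose, with medians of -0.31 in Het, -0.27 in AD and -0.10 in Null thymus. Hsp90aa1, the inducible HSP90, was at 383, 339, 362 and 302 CPM in irradiated Het mice and at 899, 679 and 677 CPM in basal Het mice (log2 fold change -1.11 ± 0.12), and basal library Het-697 was the highest of all 7. Without library Het-697, 5 chaperones fell.

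Ung fell steeply, and its log2 fold change was below 0 in AD and Null thymus too. This gene encodes the glycosylase that removes uracil from DNA. It was at 3.29, 2.97, 3.51 and 2.24 CPM in irradiated Het mice and at 14.4, 13 and 17.2 CPM in basal Het mice, a log2 fold change of -2.30 ± 0.18 (edgeR adjusted p = 9.49e-10). The log2 fold change was -1.22 in AD and -1.30 in Null thymus, and the Het response was lower than each (adjusted p of the differences 0.0117 and 0.0356, edgeR). Base excision repair genes as a list rose in 3 and fell in 4 of 20 cases, with a median of -0.03. Neil1, a glycosylase for oxidised bases, rose by 1.36 ± 0.16, or by 1.11 without library Het-631. The endonuclease gene Apex1 fell by 0.97 on the log2 scale (SE 0.23). Without libraries Het-595, Het-631 and Het-697 the log2 fold change of Apex1 was -0.84 and its call was lost (edgeR adjusted p = 0.123). Of 20 double-strand break repair genes 3 rose and none fell, with medians of 0.08 in Het, 0.20 in AD and 0.14 in Null thymus. Over all genes tested 8.74% rose and 8.09% fell, which is the background for the counts of both repair lists. Brca1 was at 116, 122, 108 and 193 CPM in irradiated Het mice and at 106, 101 and 103 CPM in basal Het mice. Its log2 fold change was 0.39 ± 0.13 with library Het-631 and 0.16 without it (edgeR adjusted p = 0.135), and it was 0.55 in AD and 0.48 in Null thymus.

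Cell cycle genes were described by phase. Of 40 genes of G2 and mitosis, 19 fell and 1, Ccnf, rose, with medians of -0.31 in Het, -0.14 in AD and -0.11 in Null thymus, and edgeR called none in either difference between responses. At an unadjusted p under 0.05 edgeR gave 7 lower in Het than in AD and 5 lower than in Null, and DESeq2 called 1 lower in each. The number that fell was 12 without library Het-595, 31 without Het-631, 11 without Het-697 and 27 without all 3. Ccnb1, which encodes cyclin B1, was at 32.7, 34.4, 26.3 and 42.3 CPM in irradiated Het mice and at 94.2, 93.5 and 89 CPM in basal Het mice, a log2 fold change of -1.44 ± 0.15 in Het thymus (edgeR adjusted p = 4.13e-07), against -0.77 in AD and -0.71 in Null thymus (adjusted p of the differences 0.0814 and 0.0827, edgeR). Ube2c and Nek2, a ubiquitin conjugase and a kinase of mitosis, fell by 0.72 (SE 0.16) and 0.62 (SE 0.10). Of 35 replication genes 9 fell and 1 rose, with medians of -0.13 in Het, 0.11 in AD and 0.10 in Null thymus. Mcm2 and Mcm6, subunits of the replicative helicase, fell by 0.81 (SE 0.09) and 0.91 (SE 0.12). Library Null-604 held them at 196 and 358 CPM, against 153 to 162 and 234 to 270 CPM in the other irradiated Null libraries. Basal Null mice held Mcm2 at 207 and 247 CPM and Mcm6 at 294 and 338 CPM. The Null median of this list without Null-604 was not tested. Of 23 G1 cyclins and E2F genes 5 rose and 5 fell: the pocket protein genes Rb1 and Rbl2 rose by 0.87 ± 0.08 and 0.63 ± 0.06, and the kinase gene Cdk4 fell by 0.66 (SE 0.13).

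Replication-dependent histone genes were lower almost throughout. Of 59 clustered histone genes tested, a list chosen after its values were seen, 54 fell, 31 of them at least 2-fold, and none rose. The medians were -1.05 in Het, -1.09 in AD and -0.90 in Null thymus. Hist1h3d (chromosome 13, 23575763 to 23577011) was at 89.1, 74.9, 77 and 72.3 CPM in irradiated Het mice and at 233, 207 and 218 CPM in basal Het mice, a log2 fold change of -1.48 ± 0.13 (edgeR adjusted p = 2.37e-08), against -1.02 in AD and -0.90 in Null thymus. The linker histone gene Hist1h1a fell by 1.26 on the log2 scale (SE 0.11). In the differences between responses edgeR called 1 of the 59 for AD, higher in Het, and 0 for Null. At an unadjusted p under 0.05 it gave 4 higher and 4 lower in Het than in AD, and 2 higher and 5 lower than in Null, and DESeq2 called 1 in each. Without libraries Het-595, Het-631 and Het-697, 35 of these genes were called lower. Copies of these genes are nearly identical, and the counting could split reads between them, so single members are uncertain.

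**Figure D5:**
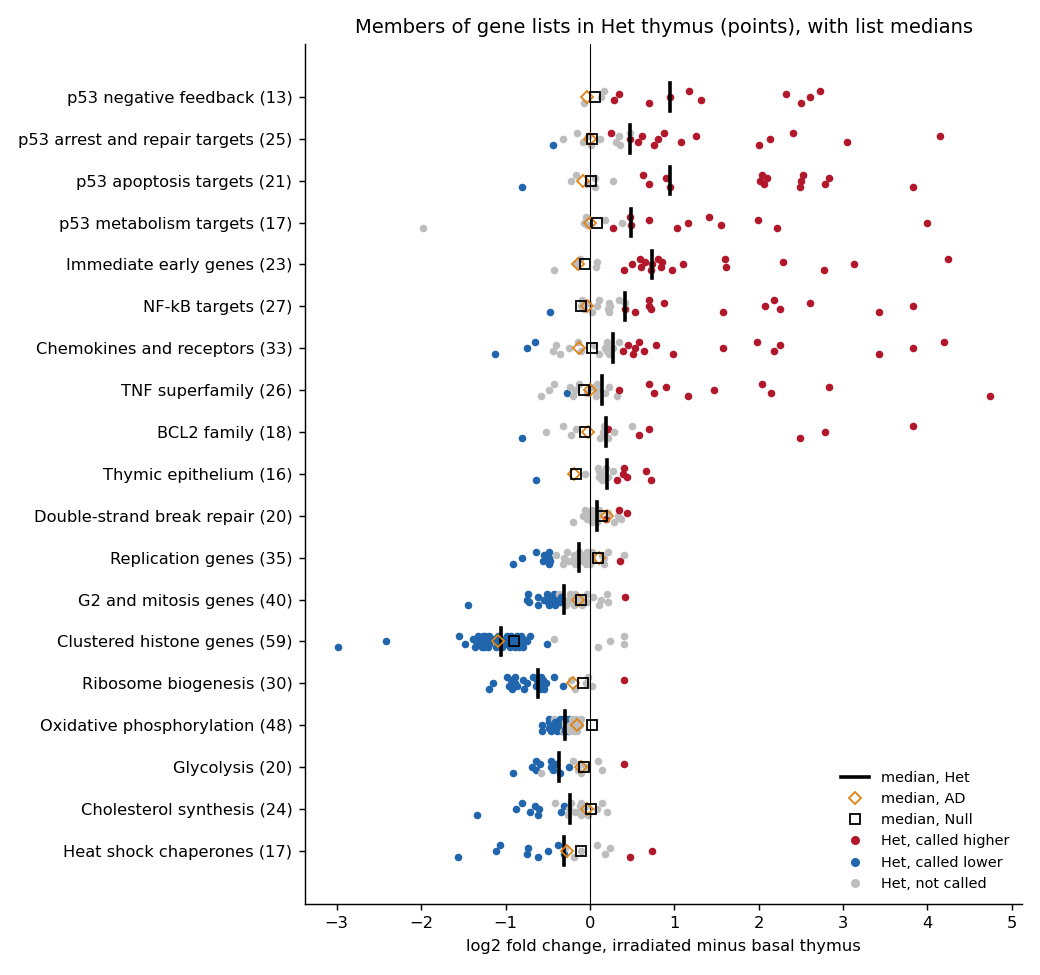
Members of gene lists in Het thymus. Each point is the log2 fold change of 1 gene, irradiated minus basal Het thymus (red called higher, blue called lower, grey not called); the bar is the list median in Het, the open diamond that in AD and the open square that in Null thymus, and the number of genes tested is in brackets. The Het bars of the 4 p53 target lists and of immediate early genes lie right of the other medians, and for clustered histone genes the 3 medians lie together near -1.

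Skeletal muscle genes were among the largest falls by size, and 1 library set them. Myh4, a myosin of fast muscle, was at 2.95, 18.3, 2.39 and 1.34 CPM in irradiated Het mice and at 162, 9.63 and 5.54 CPM in basal Het mice, a log2 fold change of -3.24 ± 0.94, or -0.28 without basal library Het-697 (edgeR adjusted p = 0.875). Acta1, skeletal actin, had -2.96 ± 0.79, or -0.30 without that library (edgeR adjusted p = 0.788). Of 12 muscle markers 7 were called lower with library Het-697 and 1 without it.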

How the data were processed

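RNA libraries of mouse thymus were analysed from the authors' deposited table of raw counts per gene, with 49585 genes in 42 columns, of which the 24 thymus columns were used. The alignment used STAR 2.6.0b and GRCm38, with DESeq2 named as well, per the submitters' processing notes. The counter, its strand setting and the annotation are not given in the sources used here, so reads of overlapping or antisense genes cannot be told apart. A column was tied to its sample by the animal number and genotype in its name. In 8 basal thymus columns the name lacks a tissue, and no other column was left for those mice. A reference list of gene names supplied symbols for 49326 identifiers, matched without their version numbers, and lacked 259. GENCODE M21 supplied the positions.

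In R 4.3.3, edgeR 4.0.16 was run with filterByExpr (23605 genes kept), TMM scaling and a robust quasi-likelihood fit over the 7 thymus groups together (24 libraries, biological coefficient of variation 0.145). Contrasts were irradiated minus basal Het, and the differences of that response from the AD and Null responses. Adjusted p-values are Benjamini-Hochberg over all genes tested, and called means an adjusted p under 0.05. Standard errors are the log2 fold change over the root of F. Replicate pairs differed by more than sampling noise, with a chi-square per degree of freedom of 6.63 to 12 among irradiated Het libraries Het-594, Het-595 and Het-603, 35.2 to 48.2 with library Het-631, and 7.38 to 13.2 among basal Het libraries. Each gene's precision is limited by the 26398761 to 31530368 counts per Het library and by the number of mice. Named were Trp53, every p53 target described by role, the called genes of largest change (at most 15 a direction, 10 for a difference between responses, each averaging 1 log2 CPM or more) and up to 6 members of other lists; other list members, named where 5 or fewer passed, were chosen after their values were seen. Members and lists were chosen with earlier results of these data known. Alternatives were RLE scaling, no filter, DESeq2 1.42.0, the compared groups alone, and Xist or Adipoq as a covariate. Each library of the groups compared was also left out in turn, and libraries Het-595, Het-631 and Het-697 together. The RP libraries were not left out. No genome was read; promoter windows came from RefSeq (GRCm38.p6). Some list members are not reported here by name.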

Additional observations from a re-analysis of the deposited data

Results flagged for a closer look

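In 17 cases 1 irradiated Het library lay far from the other 3, by the gap to its nearest neighbour as a share of the group's range (Dixon's test for 4 values at the 95% level). The cases were sought among 162 values (144 genes, 15 marker sums and 3 library measures), and chance alone gives about 1 in 20. Library Het-631 was the distant one in 15 of them. It was highest for CT010467.1 (0.969), Brca2 (0.948), Pidd1 (0.918), Il1b (0.878), Trp53cor1 (0.859), Ptprv (0.847) and Fkbp5 (0.836). It was lowest for Gdf15 (0.956), Aen (0.897), Gbp2 (0.857), Slc2a9 (0.833), Ddit4 (0.83) and Rps19 (0.83), and for the dendritic cell (0.857) and mature single-positive thymocyte (0.837) marker sums. Library Het-595 was highest for Tnfrsf10b (0.933) and Rchy1 (0.909).

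CT010467.1, annotated as a ribosomal RNA gene and named after its values were seen, was at 1870, 1820, 1820 and 4390 CPM in irradiated Het mice and at 452, 420 and 451 CPM in basal Het mice, a log2 fold change of 2.49 ± 0.29, against -0.58 in AD and -0.45 in Null thymus.

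The irradiation response differed between genotypes in 940 genes for Het against AD and in 811 genes for Het against Null, each by the edgeR test of the difference itself.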

How the results depend on the processing

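No paired analysis was possible because irradiated and basal mice are different animals that share no animal number. With only the groups compared in the fit, 2370 genes were called in Het thymus and 346 in the Het against Null difference; DESeq2 called 1220 in the Het against Null difference. Without libraries Het-595, Het-631 and Het-697, chosen after seeing the data, 2381 genes were called in Het thymus, among them 48.6% of the 3972. Leaving out 1 library of the groups compared at a time gave 2728 to 4108 calls in Het thymus, 536 to 725 past 2-fold. It gave 611 to 1584 in the difference from AD (611 without Het-703, 1584 without Het-631). In the difference from Null it gave 442 to 1329 (1329 without Het-631, 442 without Null-923, 444 without Null-859). RLE scaling kept 98.1% of the calls in Het thymus and DESeq2 97.8%. Of 144 genes listed for the text, 128 were called in Het thymus; 115 stayed called with each of the 7 Het libraries left out in turn and 117 without all 3. None of these 144 genes changed sign with a call under any alternative run. Genes named outside these 144 were not followed through the alternative runs. The causes were not tested.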

Other observations

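Hormone and stress lists not described above moved in part. Of 18 glucocorticoid targets 7 rose and 1 fell, with medians of 0.46 in Het, -0.19 in AD and 0.12 in Null thymus. Errfi1, an inhibitor of the EGF receptor, was at 68.7, 108, 66.6 and 100 CPM in irradiated Het mice and at 27.1, 28 and 21.1 CPM in basal Het mice, a log2 fold change of 1.76 ± 0.19 (edgeR adjusted p = 8.7e-07). Fkbp5, a chaperone of the glucocorticoid receptor, was at 182, 177, 170 and 260 CPM in irradiated Het mice and at 307, 392 and 283 CPM in basal Het mice, a log2 fold change of -0.73 ± 0.11 (edgeR adjusted p = 6.91e-05). The list thus held members called in opposite directions, and 2 of the risers, Ddit4 and Dusp1, are also p53 or immediate early genes of the lists above. Of 19 clock genes 5 rose and 1 fell, with a median of 0.20. Of 18 NRF2 targets 5 rose and 2 fell, with a median of 0.03, and of 20 integrated stress response genes 3 rose and 5 fell, with a median of 0.04.

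Of 36 cytosolic ribosomal protein genes 7 fell and 1, Rps19, rose, with a median of -0.30; without library Het-631, 2 fell. Rps19 (log2 fold change 0.46 ± 0.14) lost its call when any 1 of Het-594, Het-603, Het-697, Het-703 and Het-855 was left out (edgeR adjusted p of 0.0556 to 0.0741) and kept it without Het-595, Het-631 and Het-697 together (0.0332). Of 24 fatty acid oxidation genes 3 rose and none fell, with a median of -0.08. The adipocyte marker sum was 331 to 2010 CPM in irradiated Het mice and 568 to 2200 CPM in basal Het mice, and no adipocyte marker of 16 was called.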
